A study of Homo sapiens with 402 samples.

Results

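The 10 genes described here are TXN, TXNRD1, TXNRD2, SRXN1, PRDX1, PRDX6, GPX1, GPX2, GPX4 and OSGIN1. They were chosen by name, as thioredoxin, peroxiredoxin and glutathione peroxidase genes, from the 34721 gene symbols of the count tables. The rule uses no measured value, but the genes were chosen with earlier results of these data known. Of the 10, OSGIN1 is an oxidative stress-induced growth inhibitor and not itself a thiol or peroxide reducing enzyme. TXN, TXNRD1, PRDX1, SRXN1 and OSGIN1 were higher after arsenic, copper and lead at 25 µM, all but SRXN1 after cadmium, and all but PRDX1 after thiram. In copper the SRXN1 call held under 4 of 15 settings tried and the PRDX1 call under 8 of 15. In cadmium TXNRD1 and PRDX1 did not pass with total counts as library size. GPX1 and GPX4 were lower after arsenic and thiram, PRDX6 was lower after thiram, and TXNRD2 passed as lower after both, in arsenic under a minority of the settings tried.

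The measurements are RNA read counts from wild-type MCF10A cells, a non-tumorigenic human breast epithelial line, at passage 105. The cells sat in wells of 384-well plates for 48 h with a chemical at 0.025, 0.25, 2.5 or 25 µM, or with solvent alone. The series held 402 libraries from 21 chemicals and their controls, and the question was how expression responds to chemicals with unequal exposure in the population. The labels call the 4 libraries of a dose biological replicates but do not say whether they came from separate cultures, so p-values measure the spread between wells, which may be technical.

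The groups were compared within the plate named by the barcode of the label, and each chemical keeps its label name here. Arsenic, Cadmium, Copper, Lead and Mercury were on plate 3153-AT with 15 water controls. Thiram, PCB153, PCB187, DCB_14 and DCP_25 were on plate 3284-AT with 15 DMSO controls. BPA, BPF, BPS, MPB and PPB were on plate 3206-AT with 15 DMSO controls. PFDA, PFNA, PFOS and Phenanthrene were on plate 3240-AT with 12 DMSO controls, and PFOA was on that plate with 4 water controls. DDE, labelled as dissolved in DMSO, was on plate 2250-AT with 8 controls that carry that barcode but are labelled as water controls of plate 3153-AT. Each chemical had 4 libraries per dose. The exceptions are 3 libraries for MPB and for PPB at 0.025 µM, and 2 for cadmium at 25 µM.

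Thioredoxin reduces protein disulfides and is itself reduced by thioredoxin reductase with NADPH, in the cytosol by TXNRD1 and in mitochondria by TXNRD2. Peroxiredoxins reduce peroxides through a reactive cysteine. Most of them, PRDX1 included, then take electrons from thioredoxin, and sulfiredoxin restores the enzyme when that cysteine is over-oxidised, whereas PRDX6 has a single such cysteine and relies on glutathione. Glutathione peroxidases use glutathione, and GPX1, GPX2, GPX4 and the thioredoxin reductases carry selenocysteine. NRF2, the transcription factor held back by KEAP1, binds antioxidant response elements and is known to raise TXN, TXNRD1, SRXN1, PRDX1, GPX2 and OSGIN1.

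Because that element is the best known control sequence of these genes, the RefSeq promoter windows of GRCh38.p14, from 250 bases before to 50 bases after a transcription start, were searched for its core, TGACNNNGC, on both strands. Windows were listed for TXN, TXNRD1, TXNRD2, SRXN1, GPX1, GPX2, GPX4 and OSGIN1. The core was found in both windows of TXNRD1 and in that of GPX2, and in none of the windows of the other 6 genes. Over all 35116 windows of the table, 13.3% held it, and 16.1% of the 27305 gene symbols held it in a window. The following 129 bases around each match before the start are given 5′ to 3′ on the strand of the gene, with the matched letters in capitals. They lie at chr12:104215620-104215748 (plus strand), chr12:104286870-104286998 (plus strand) and chr14:64942799-64942927 (minus strand).
TXNRD1 window 1: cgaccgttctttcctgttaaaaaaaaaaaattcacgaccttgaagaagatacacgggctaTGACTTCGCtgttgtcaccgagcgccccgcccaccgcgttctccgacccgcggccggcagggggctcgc
TXNRD1 window 2: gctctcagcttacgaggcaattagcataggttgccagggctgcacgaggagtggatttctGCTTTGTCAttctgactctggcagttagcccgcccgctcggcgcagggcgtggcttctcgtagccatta
GPX2: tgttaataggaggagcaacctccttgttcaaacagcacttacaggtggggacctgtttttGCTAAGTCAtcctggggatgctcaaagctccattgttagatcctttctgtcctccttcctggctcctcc
In the second and the third sequence the core reads on the opposite strand. A match is a description of the letters and not a measured binding site. TXNRD1, with the core in both windows, was among the members that rose, and GPX2, also with the core, was close to absent from these cells, as given below. TXN, SRXN1 and OSGIN1 rose without the core in the windows searched.

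The depth of a library, its total count, ran from 1.43 to 25.8 M (M stands for 1000000 counts) on plate 3153-AT and from 2.31 to 22.5 M on plate 3284-AT, and the medians of the 5 plates lay between 6.42 and 13.8 M. Libraries with low and high label numbers (1 and 2 against 3 and 4 in a dosed group, the first 8 against the rest in the controls) differed in depth, with control medians of 20.9 and 3.17 M on plate 3153-AT and 17.9 and 3.18 M on plate 3284-AT. One library labelled cadmium at 25 µM carries the barcode of another plate and was set aside. It had 5 OSGIN1 counts in 1.28 M, or 3.89 CPM by its total, a level within the controls. CPM are counts per 1000000 of the library size, which was scaled by TMM (a factor that sets the bulk of genes level between libraries) in all other values below unless stated. The 2 cadmium libraries left were both low-numbered, had 1.43 and 1.45 M counts, and had 39.3% and 46.8% of them on mitochondrial genes, against medians of 7.37% to 9.10% over the plates. In the plate 3153-AT controls all 7 epithelial markers (KRT5, KRT14, KRT17, KRT6A, EPCAM, CDH1 and TP63) were over 1 CPM, and 4 immune markers summed to at most 0.715 CPM. Of 5 fibroblast markers 2 were over 1 CPM, and the list summed to between 21.6 and 146 CPM. The summed epithelial markers were 1369 to 2002 CPM after arsenic, 4397 to 8761 after copper and 3222 to 3870 in the controls. After cadmium they were 4475 to 4961, with TP63 at 0 in both libraries. Single markers did not all move alike. Mean KRT5 was 116 CPM after arsenic and 601 after cadmium, against 1189 in the controls, and mean KRT17 was 791 and 1513, against 442. Their part in the results was not tested. In bulk RNA, fewer cells of a kind and less RNA per cell cannot be told apart.

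Levels are divided by exon length only where genes are compared. Per kilobase of exon in the plate 3153-AT controls (n = 15), PRDX1 led with 501 ± 47.6 CPM (SD), followed by TXN with 339 ± 72.6, PRDX6 with 310 ± 30.4 and GPX1 with 280 ± 64.3. GPX4 stood at 122 ± 28.9 and TXNRD1 at 34.3 ± 6.07. TXNRD2 had 6.18 ± 1.34, SRXN1 2.82 ± 1.14, OSGIN1 1.51 ± 1.04 and GPX2 0.19 ± 0.54. TXN, PRDX1, PRDX6, GPX1 and GPX4 were thus above 100 CPM per kilobase, TXNRD1 lay lower, and TXNRD2, SRXN1, OSGIN1 and GPX2 were below 10. Controls of the DDE plate, from the other sequencing run, had less TXN (198 CPM per kilobase) and more OSGIN1 (8.20) than those of plate 3153-AT, so levels are compared only within a plate.

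At 25 µM, 30 of 209 comparisons of a member with its controls passed edgeR's quasi-likelihood test at an adjusted p under 0.05, 23 higher and 7 lower, against 5.81% of all genes tested over the same comparisons. The 30 lay in arsenic, cadmium, copper, lead and thiram. In 20 of the 30 the dosed and control libraries did not overlap at all, against 42.7% of all genes called in these 5 chemicals. Low-numbered and high-numbered libraries could be fitted apart for 26 of the 30, and in all 26 the direction was the same in both, with 19 passing in both. In arsenic 8 of the 10 members passed, 5 higher and 3 lower, against 41.5% of all genes (23.1% higher, 18.5% lower). In thiram 8 passed, 4 higher and 4 lower, against 32% (15.7% higher, 16.2% lower). In cadmium 4 passed, all higher, against 30% (12.9% higher, 17.2% lower). In copper and in lead 5 passed, all higher, where 1.94% and 1.41% of all genes were called higher. Abundant genes are called more often: with an average log2 CPM of 4 or more, 68.1% passed in arsenic, 57.1% in thiram, 56.1% in cadmium, 7.07% in copper and 5.61% in lead. Of the 7 members that abundant (all but SRXN1, GPX2 and OSGIN1), 6 passed in arsenic, 6 in thiram, 3 in cadmium, 3 in copper and 3 in lead. In arsenic, thiram and cadmium a large share of such genes passed, so the members' counts there say little about the members, and in copper and lead they stood far above the background. The members were chosen with earlier results of these data known, so these counts are no independent support. The median log2 fold change of the members was 0.65 in arsenic, 0.15 in cadmium, 0.18 in copper, 0.60 in lead and 0.38 in thiram, beside 0.02, −1.37, 0.00, 0.00 and −0.11 over all genes. Over the genes with an average log2 CPM of 4 or more it was −0.21, −0.37, 0.01, 0.02 and −0.13.

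**Figure D1:**
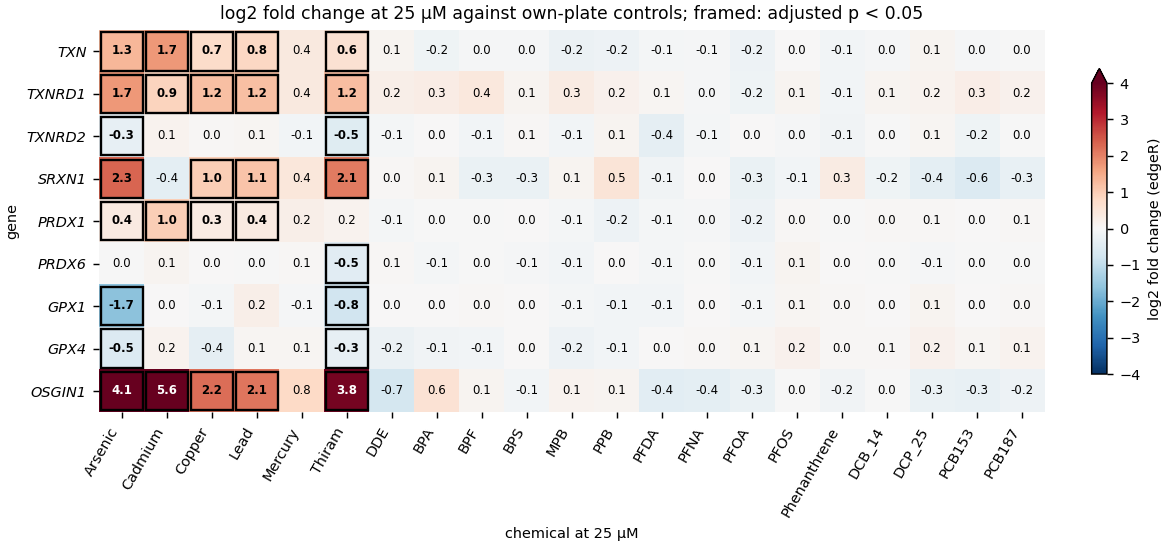
Log2 fold change of each member but GPX2 (rows) in each chemical at 25 µM (columns) against the controls of its own plate, with a frame where the edgeR adjusted p was under 0.05. The frames fall in the columns of arsenic, cadmium, copper, lead and thiram, 23 on higher and 7 on lower values.

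Cadmium depends on the scaling. With total counts as library size, without the TMM factor, 2 members passed as higher and 4 as lower in cadmium, in place of 4 and 0. TXN (0.79 on the log2 scale) and OSGIN1 (4.65) remained higher, and TXNRD2 (−0.79), PRDX6 (−0.84), GPX1 (−0.95) and GPX4 (−0.77) became lower. TXNRD1 turned to −0.10 (adjusted p = 0.80) and PRDX1 to 0.02, neither past the test. Scaled to the total of non-mitochondrial counts, the cadmium libraries lay above the controls by 1.45 for TXN, 0.56 for TXNRD1, 0.69 for PRDX1 and 5.36 for OSGIN1 on the log2 scale, and below them by 0.28 for GPX1. Total counts moved the median over all genes in cadmium by −0.72, and the RLE scaling of DESeq2 within edgeR moved it by 0.11. RLE moved that of arsenic by 0.13. DESeq2 itself moved the cadmium median by 1.44, but the members called in cadmium had close values under DESeq2 and RLE. They were 1.91 and 1.91 for TXN, 1.04 and 1.04 for TXNRD1, 1.15 and 1.16 for PRDX1 and 5.82 and 5.81 for OSGIN1. The other cadmium values given here are TMM-scaled.

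TXN, the small disulfide-reducing protein at the centre of the system, lies on the minus strand at chr9:110243811-110256640 (GRCh38, GENCODE v29). It had 244, 404 and 493 CPM (lowest, median, highest) in the 15 controls of plate 3153-AT. The 4 arsenic libraries held 1027, 1118, 838 and 898 CPM, and the 2 cadmium libraries 1289.5 and 1301 CPM. Both groups lay wholly above the controls, cadmium highest. The 4 lead libraries held 792, 735, 581 and 646 CPM, and the copper libraries 791, 746, 491 and 566 CPM. Lead lay above all controls, and the third copper library fell within their range. On plate 3284-AT the controls ran from 337 over 425 to 495 CPM, and the thiram libraries held 636, 573, 621 and 709.9 CPM, all above them. TXN rose 2.50-fold after arsenic (log2 1.32 ± 0.12 SE, adjusted p = 3.34e-16), 3.34-fold after cadmium (1.74 ± 0.16, p = 2.67e-16), and by log2 0.83 ± 0.13 after lead (p = 2.61e-06), 0.74 ± 0.13 after copper (p = 2.02e-05) and 0.60 ± 0.10 after thiram (p = 2.83e-07).

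TXNRD1 is the cytosolic selenoenzyme that reduces thioredoxin, on the plus strand at chr12:104215779-104350305. Its 15 water controls had 182, 227 and 302 CPM as the lowest, median and highest values. After arsenic it had 673, 671, 886 and 794 CPM, and after cadmium 428 and 416 CPM. After copper the libraries held 529.6, 500.5, 496 and 583 CPM, and after lead 485, 525, 572 and 530.3 CPM. All 14 of these libraries were above every control, with arsenic highest. In thiram it had 563, 689, 723 and 578 CPM against 224, 269.7 and 347 in the controls, again with no overlap. TXNRD1 rose 3.29-fold after arsenic (log2 1.72 ± 0.14, adjusted p = 3.36e-19) and 1.84-fold after cadmium (0.88 ± 0.20, p = 2.62e-04, but lost under total counts as given above). The log2 fold changes in copper (1.20 ± 0.14, p = 6.16e-10), lead (1.20 ± 0.14, p = 1.09e-09) and thiram (1.22 ± 0.13, p = 1.01e-13) lay close together.

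TXNRD2, the mitochondrial reductase, at chr22:19875517-19941992 on the minus strand, moved the other way. After arsenic it had 40.8, 46.7, 40.8 and 36.9 CPM against 28, 54.2 and 66.2 in the controls, inside their range. The thiram libraries held 56.8, 44.3, 33.5 and 31.9 CPM against 35, 56.9 and 75.8, with the third and the fourth below every control. It fell by 0.34 ± 0.14 on the log2 scale in arsenic (adjusted p = 0.0417) and by 0.47 ± 0.15 in thiram (p = 0.00966). The arsenic call held under 4 of 15 alternatives. It was lost under DESeq2 (−0.21, adjusted p = 0.173), RLE scaling (−0.20), total counts (−0.31) and without the low-count filter (−0.30), with low-numbered or high-numbered libraries alone, with the 2 groups alone, with the set-aside cadmium library in the fit and without replicate 1, 3 or 4. The thiram call held under 11 of 15, and was lost without replicate 3 or 4, with the 2 groups alone and in the low-numbered libraries alone (−0.33).

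**Figure D2:**
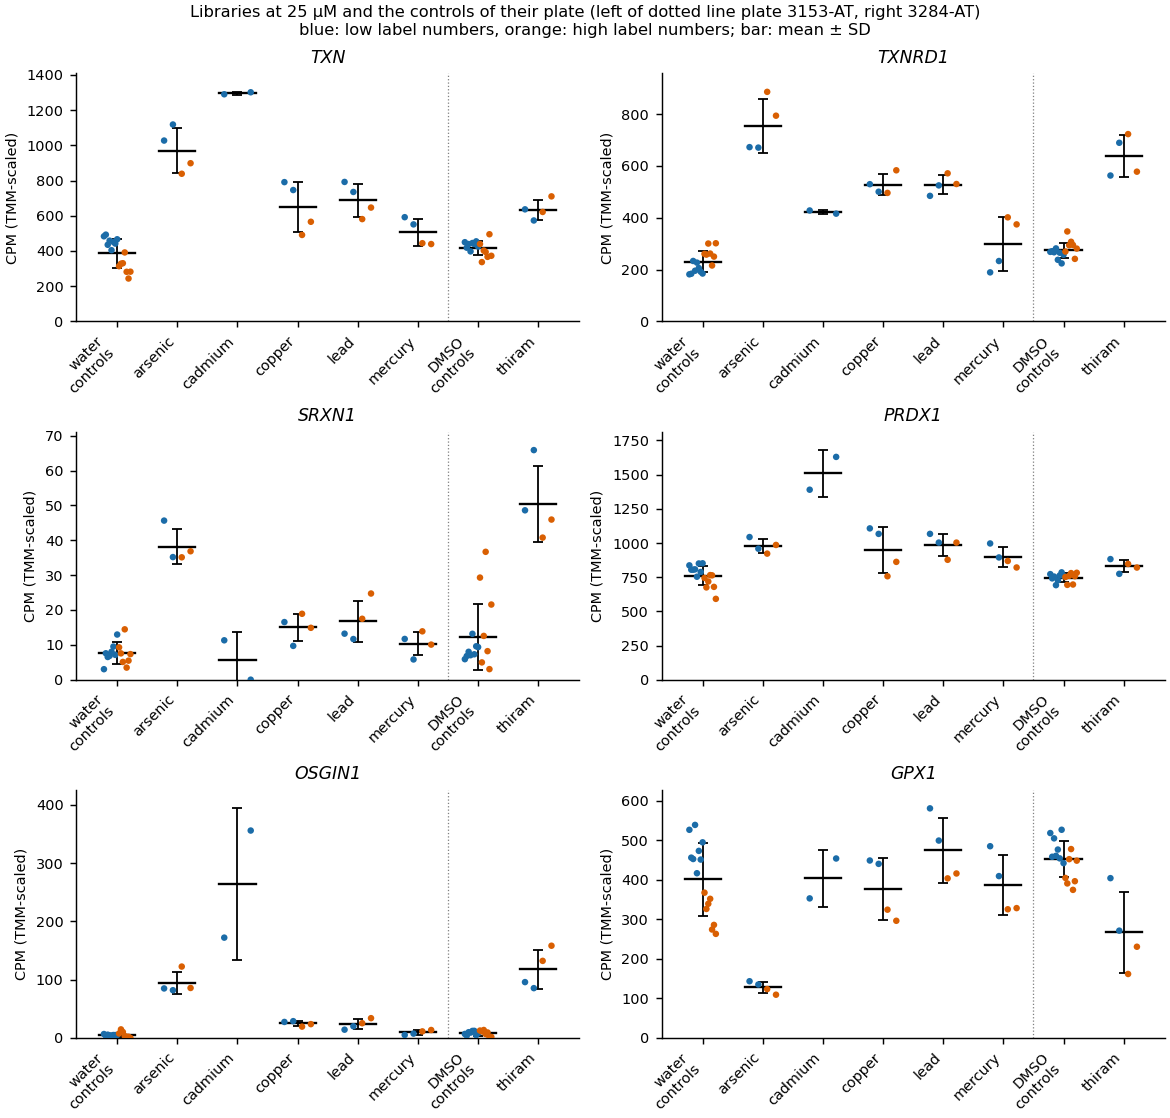
CPM of TXN, TXNRD1, SRXN1, PRDX1, OSGIN1 and GPX1 in each library of the controls and of 6 chemicals at 25 µM, with blue points for low and orange for high label numbers and bars for the mean ± SD (the lower bar of SRXN1 in cadmium is cut at 0). TXNRD1 and OSGIN1 in arsenic, copper and thiram lie above all controls of their plate, and GPX1 in arsenic lies below all of them.

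PRDX1, an abundant peroxiredoxin that takes electrons from thioredoxin, is on the minus strand at chr1:45511036-45523047, where 24.9% of its exon bases overlap MMACHC on the opposite strand. Its water controls had 591, 765 and 852 CPM. Arsenic gave 1043, 958, 922 and 986 CPM, and cadmium 1390.0 and 1630.0 CPM. Lead gave 1067, 1003, 877 and 1003 CPM, and copper 1107, 1067, 757 and 862 CPM. All but the third copper library lay above the controls, and the shifts were small except in cadmium. PRDX1 rose by log2 0.36 ± 0.09 in arsenic (adjusted p = 6.19e-04), 0.99 ± 0.11 in cadmium (p = 1.13e-11), 0.37 ± 0.09 in lead (p = 0.0077) and 0.31 ± 0.09 in copper (p = 0.0317). The copper call was lost without replicate 1 or 2 and under RLE scaling, no low-count filter, high-numbered libraries alone (0.20), the 2 groups alone and the fit with the set-aside library, and the lead call without replicate 1, 2 or 4. In thiram the value was 0.15 ± 0.08 (p = 0.157) in this fit. It passed under DESeq2 (0.24, p = 0.0066), under RLE scaling (0.24, p = 0.0164) and with the 2 groups alone (0.19, p = 0.0336), and under no other alternative.

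SRXN1, the sulfiredoxin that repairs over-oxidised peroxiredoxins, lies on the minus strand at chr20:646615-653370 and shares 85.0% of its exon bases with AL121758.1 on the same strand, so reads of the pair could be divided between them. It was low in the controls, with 3.01, 7.33 and 14.5 CPM on plate 3153-AT. After arsenic it had 45.7, 35.2, 35.1 and 36.9 CPM, and after thiram 48.6, 65.9, 40.8 and 45.9 CPM, where the controls had 3.03, 8.18 and 36.7 CPM. Both groups lay above all their controls. It had 16.5, 9.70, 18.9 and 14.9 CPM after copper and 13.2, 11.7, 17.5 and 24.7 CPM after lead, which overlapped the controls. In the 2 cadmium libraries it had 11.3 and 0 CPM, from 9 and 0 counts. SRXN1 rose 5.00-fold in arsenic (log2 2.32 ± 0.28, adjusted p = 1.97e-11) and 4.23-fold in thiram (2.08 ± 0.31, p = 3.18e-08). The values were 1.13 ± 0.29 in lead (p = 0.0174), lost without replicate 3 or 4 and in low-numbered libraries alone (0.68), and 0.98 ± 0.30 in copper (p = 0.0488). The copper call was lost without any 1 replicate and under most other alternatives, with values between 0.77 and 1.17. In cadmium the value was −0.38 ± 0.70 (p = 0.796), with a 95% interval from −1.75 to 0.99 that the depth of these 2 libraries leaves wide.

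PRDX6, the peroxiredoxin that works with glutathione and also has phospholipase activity, is on the plus strand at chr1:173477266-173488807. It passed the test in thiram alone at 25 µM, where the libraries held 617, 506, 474 and 553 CPM against 651, 735 and 827 in the controls. All 4 lay below every control. PRDX6 fell by 0.47 ± 0.06 on the log2 scale (adjusted p = 3.64e-09), in the low-numbered (−0.38) and the high-numbered libraries (−0.59). In the other 20 chemicals it lay between −0.11 and 0.11 on the log2 scale.

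GPX1, the abundant cytosolic glutathione peroxidase, is on the minus strand at chr3:49357171-49358600. Its processed pseudogene GPX1P1 held counts equal to 7.19% of those of GPX1 on plate 3153-AT and 6.56% on plate 3284-AT, so a part of the reads may have gone to the copy. In the water controls GPX1 had 263, 416 and 539 CPM. The arsenic libraries held 143, 135, 123 and 109 CPM, all far below the lowest control. The thiram libraries held 404, 271, 162 and 231 CPM against 374, 454 and 526 in the controls, the first of them inside the control range. GPX1 fell to 0.318-fold in arsenic (log2 −1.65 ± 0.16, adjusted p = 1.03e-15) and to 0.591-fold in thiram (−0.76 ± 0.10, p = 2.54e-09). Arsenic gave −1.73 in low-numbered and −1.35 in high-numbered libraries, and thiram −0.52 and −1.13. In cadmium (0.00 ± 0.19), copper (−0.09) and lead (0.24) it did not pass.

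GPX4, the enzyme that reduces lipid peroxides in membranes, is on the plus strand at chr19:1103926-1106791. It had 163, 187, 162 and 172 CPM in arsenic against 135, 257 and 333 in the controls, and 347, 348, 254 and 272 CPM in thiram against 228, 417 and 483. Both groups sat in the lower part of the control range without leaving it. GPX4 fell by 0.54 ± 0.17 on the log2 scale in arsenic (adjusted p = 0.0071) and by 0.34 ± 0.10 in thiram (p = 0.00667). In the high-numbered arsenic libraries alone the value was −0.12 (p = 0.513), against −0.71 in the low-numbered ones, and the thiram call was lost without replicate 3, with the 2 groups alone and in the high-numbered libraries alone (−0.27). Controls themselves differed by label number in this gene, as given below.

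**Figure D3:**
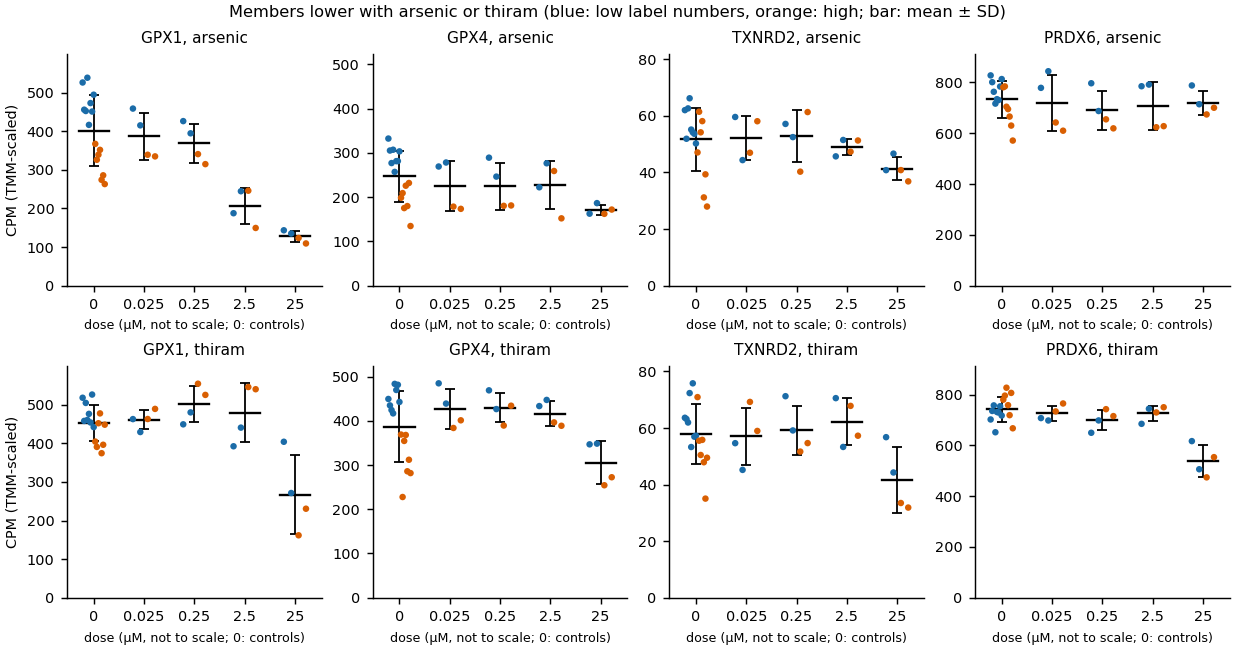
CPM per library of GPX1, GPX4, TXNRD2 and PRDX6 in the controls and at each dose of arsenic and thiram, with bars for the mean ± SD. GPX1 in arsenic lies below all controls at 2.5 and 25 µM, and PRDX6 in thiram does so at 25 µM.

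GPX2, the gastrointestinal glutathione peroxidase, on the minus strand at chr14:64939152-64942905, had 0 counts in 257 of 377 libraries of the plates other than that of DDE. No library had more than 28 counts, and the highest level was 3.16 CPM. It was not listed in the count tables of the DDE plate, which leaves 9 members there. No group passed the test, and at this depth no change in GPX2 could be measured.

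OSGIN1, a growth inhibitor induced by oxidative stress, on the plus strand at chr16:83948282-83966332, had the largest fold changes of the members in arsenic, cadmium, copper, lead and thiram. Its water controls had 0, 4.84 and 14.7 CPM. Arsenic gave 84.9, 81.9, 122 and 85.7 CPM, and cadmium 172 and 356 CPM, from 137 and 254 counts. Copper gave 27.4, 28.8, 19.4 and 23.7 CPM, and lead 14.1, 20.03, 25.2 and 33.9 CPM. All but the first lead library exceeded every control. In thiram it had 95.7, 85.4, 132 and 158 CPM against 0, 9.09 and 13.6 in the controls, with no overlap. OSGIN1 rose 17.6-fold in arsenic (log2 4.14 ± 0.30, adjusted p = 1.16e-21), 49.6-fold in cadmium (5.63 ± 0.36, p = 8.75e-25) and 14.2-fold in thiram (3.83 ± 0.44, p = 5.48e-12). The log2 fold changes in copper (2.22 ± 0.31, p = 1.57e-07) and lead (2.13 ± 0.31, p = 1.06e-06) were smaller. In the annotation 13.9% of its exon bases overlap AC009119.2 on the same strand.

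At 2.5 µM, 10 of 209 comparisons passed, against 0.263% of all genes. They were TXN, TXNRD1 and OSGIN1, higher in arsenic, copper and lead, and GPX1, lower in arsenic. In these chemicals 1.31%, 0.799% and 0.255% of all genes were called higher, and 0.976% lower in arsenic. TXN had 634, 651, 659 and 618 CPM in arsenic, 632, 673, 535 and 589.9 in lead, and 619, 629, 407 and 512 in copper. Only copper overlapped the controls. TXNRD1 had 322, 314, 339.6 and 637 CPM in arsenic, 378, 381, 451 and 403 in lead, and 355, 376, 524 and 411 in copper, all above the controls. The log2 fold changes of TXN were 0.73 ± 0.13 in arsenic (adjusted p = 8.63e-05), 0.65 ± 0.13 in lead (p = 0.00248) and 0.48 ± 0.13 in copper (p = 0.0304). Those of TXNRD1 were 0.81 ± 0.15 in arsenic, 0.81 ± 0.15 in lead and 0.86 ± 0.15 in copper, and without the fourth arsenic library the arsenic value was 0.51 and did not pass. OSGIN1 had 8.55, 7.62, 19.5 and 27.1 CPM in arsenic, overlapping the controls, and its log2 fold changes were 1.55 ± 0.33 in arsenic, 1.47 ± 0.32 in copper and 1.51 ± 0.32 in lead. GPX1 had 188, 245, 246 and 149 CPM in arsenic, below all controls, and fell by 0.96 ± 0.15 on the log2 scale (p = 7.94e-06). Several of these calls were lost when 1 library was left out: TXN in copper without replicate 1, 2 or 4 and in lead without replicate 2, and OSGIN1 was lost without replicate 3 or 4 in arsenic and lead and without replicate 3 in copper. TXN, TXNRD1 and OSGIN1 thus moved at the second highest dose of arsenic, copper and lead, and no member passed in cadmium, mercury or thiram at that dose.

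At 0.25 µM, 1 of 209 comparisons passed, TXNRD1 in PCB153, against 0.0626% of all genes, and at 0.025 µM none did, against 0.00244%, with 15 at an unadjusted p under 0.05 by edgeR and 1 called by DESeq2. A linear trend over the 4 doses, without the controls, passed for 22 of 209, 18 rising and 4 falling, against 3.87% of all genes. Trends passed in arsenic for TXN, TXNRD1, SRXN1, PRDX1, GPX1 and OSGIN1 (27.4% of all genes), in cadmium for TXN, TXNRD1, PRDX1 and OSGIN1 (24.5%), and in thiram for all members but TXNRD2, PRDX1 and GPX2 (21%). In copper they passed for TXNRD1 and OSGIN1 (0.836% of all genes) and in lead for TXN, TXNRD1 and OSGIN1 (0.379%). The steepest was OSGIN1 in cadmium, with a slope of 1.79 ± 0.17 on the log2 scale per 10-fold dose, and the steepest fall was GPX1 in arsenic, with −0.56 ± 0.06. TXNRD1 gained 0.50 ± 0.06 per 10-fold dose in arsenic, 0.40 ± 0.06 in lead, 0.38 ± 0.06 in copper, 0.37 ± 0.05 in thiram and 0.27 ± 0.07 in cadmium.

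**Figure D4:**
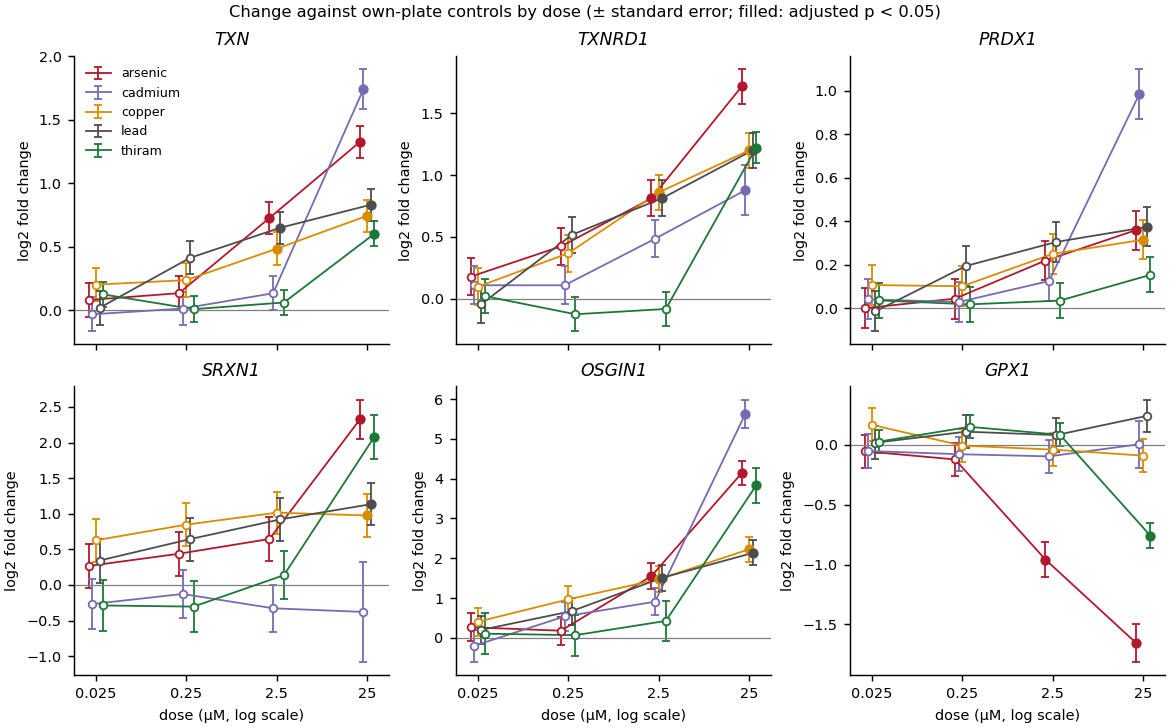
Log2 fold change ± SE against dose (µM, log axis) for TXN, TXNRD1, PRDX1, SRXN1, OSGIN1 and GPX1 in arsenic, cadmium, copper, lead and thiram, with filled points where the adjusted p was under 0.05. In arsenic, copper and lead TXN, TXNRD1 and OSGIN1 pass from 2.5 µM on, and in cadmium and thiram members pass at 25 µM alone.

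The 5 metals shared a plate and its controls, so they were also compared with each other at 25 µM, a comparison added after the data had been seen. Of 100 tests over 10 pairs, 34 passed, against 18.7% of all genes. Arsenic differed from cadmium in 6 members, against 22.8% of all genes. It was higher in TXNRD1 (log2 0.84 ± 0.25, adjusted p = 0.00788) and SRXN1 (2.70 ± 0.70, p = 0.00192), and lower in PRDX1 (−0.63 ± 0.14), GPX1 (−1.66 ± 0.21, p = 1.07e-09), GPX4 (−0.69 ± 0.26) and OSGIN1 (−1.49 ± 0.50, p = 0.0209). Arsenic differed from copper in 5 members (28.3% of all genes) and from lead in 6 (29.2%). TXN, TXNRD1, SRXN1 and OSGIN1 were higher in arsenic than in either, OSGIN1 by 1.92 ± 0.43 and 2.01 ± 0.44. GPX1 was lower by 1.56 ± 0.18 against copper and by 1.89 ± 0.18 against lead. Arsenic differed from mercury in 6 members (31%). Cadmium differed from copper (24.6%), lead (24.3%) and mercury (25.6%) in the same 3 members, TXN, PRDX1 and OSGIN1, all higher in cadmium, TXN by 0.91 ± 0.20 against lead. These cadmium differences rest on 2 libraries and on the TMM scaling.

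Copper and lead did not differ in any of the 10 members by edgeR, where 0.432% of all genes passed and 1 member had an unadjusted p under 0.05. For TXNRD1 the difference of copper minus lead was 0.00 on the log2 scale, with a 95% interval from −0.38 to 0.37, for TXN −0.09 (−0.41 to 0.24) and for OSGIN1 0.09 (−0.74 to 0.92). The intervals show how far apart these responses could lie, and GPX4 had −0.46 (−0.86 to −0.05, adjusted p = 0.54), the largest difference of the members other than GPX2, whose −2.83 (adjusted p = 0.736) rests on counts at or near 0. Mercury was the metal with no call at 25 µM, against 0.0453% of all genes, with 4 members at an unadjusted p under 0.05 and none by DESeq2. TXN had 592, 551, 444 and 439 CPM in mercury, TXNRD1 189, 233, 402 and 374, and OSGIN1 5.06, 7.41, 11.2 and 13.6. The first and second mercury libraries lay above all controls in TXN and the third and the fourth in TXNRD1. Against controls of the same label numbers (404 to 493 CPM in low-numbered and 244 to 392 in high-numbered ones), all 4 mercury libraries were higher in TXN. The log2 fold changes were 0.39 ± 0.13 for TXN (adjusted p = 0.471), 0.38 ± 0.15 for TXNRD1 and 0.81 ± 0.34 for OSGIN1. With a term for the label number TXN passed in mercury (0.41 ± 0.07, adjusted p = 3.61e-04), and in the high-numbered libraries alone TXN (0.50, p = 0.0158) and TXNRD1 (0.55, p = 0.0418) did. TXNRD1 was higher in copper than in mercury by 0.82 ± 0.19 (p = 0.0149, against 0.63% of all genes) and in lead than in mercury by 0.82 ± 0.19 (p = 0.0423, against 0.14%), and no other member passed in these pairs. Arsenic and thiram were on different plates and their difference was not tested.

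None of the members passed in the other 15 chemicals at 25 µM by edgeR, where 0.235% of all genes did. Their log2 fold changes ranged from −0.23 (MPB) to 0.11 (DDE) for TXN, from −0.16 (PFOA) to 0.42 (BPF) for TXNRD1, from −0.36 (PFDA) to 0.11 (PPB) for TXNRD2 and from −0.19 to 0.06 for PRDX1. PRDX6, GPX1 and GPX4 stayed within −0.22 and 0.17. The low-count genes spread further, SRXN1 from −0.56 (PCB153) to 0.53 (PPB) and OSGIN1 from −0.72 (DDE) to 0.59 (BPA). The lowest adjusted p was 0.112, for OSGIN1. Chemicals related by name on a plate (BPA, BPF and BPS with each other, MPB with PPB, PFNA with PFDA, PCB153 with PCB187) were compared at matched doses in 240 tests over 6 pairs. None passed by edgeR, against 0.0162% of all genes, 27 had an unadjusted p under 0.05, and DESeq2 called 4. For TXN, TXNRD1, TXNRD2, PRDX1, PRDX6, GPX1 and GPX4 at 25 µM the 42 differences lay between −0.21 and 0.31 on the log2 scale, and their 95% intervals reached from −0.50 to 0.64.

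The call of TXNRD1 in PCB153 at 0.25 µM rested on 1 library. The 4 libraries held 276, 276, 1119.9 and 328 CPM against 224, 269.7 and 347 in the controls, and the value was 0.87 ± 0.13 (adjusted p = 6.14e-06) with the third library and 0.10 (p = 0.898) without it. In this comparison 0.244% of all genes were called higher. The third library also had the highest TXN (804 CPM), PRDX1 (1190), OSGIN1 (67.1) and NQO1 (2567, a quinone reductase) among all libraries of plate 3284-AT outside thiram at 25 µM, whose other 90 libraries reached 511, 867, 18.6 and 1085 CPM. TXN, TXNRD1, PRDX1 and OSGIN1 were thus all high in 1 well while its GPX1 (389 CPM) and GPX4 (290 CPM) were below the other 3 of its group. Its depth of 12.4 M and mitochondrial share of 8.76% lay within those of the other 3 (10.7 to 13.1 M, and 7.77% to 9.16%), and its summed epithelial markers were the highest of the group, 7856 CPM against a lowest of 2239. Their part in the result was not tested.

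**Figure D5:**
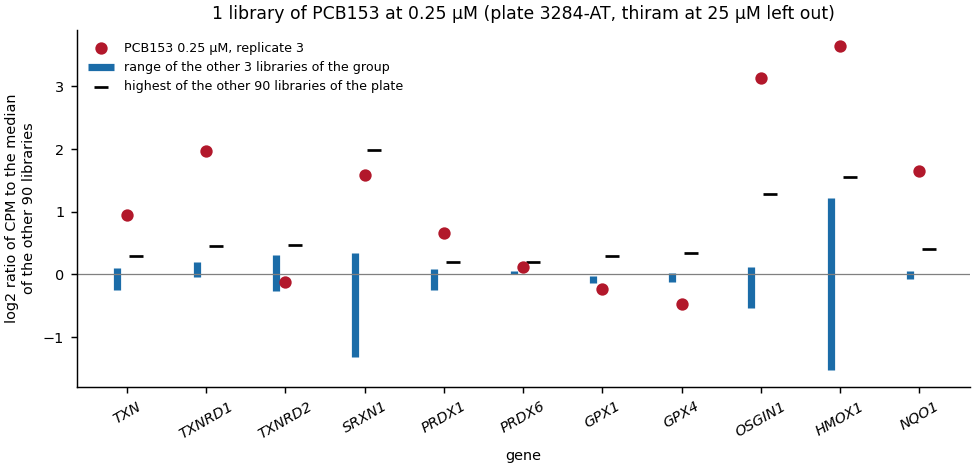
Log2 ratio of each gene's CPM to the median of the other 90 libraries of plate 3284-AT (thiram at 25 µM left out), for the third PCB153 library at 0.25 µM and the other libraries. TXN, TXNRD1, PRDX1, OSGIN1, HMOX1 and NQO1 of that library lie above all the others.

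The controls show how far the members move without a chemical. Between high-numbered and low-numbered controls of a plate, 6 of 40 member comparisons passed, against 4.37% of all genes over the 4 plates. On plate 3153-AT (9.69% of all genes) TXN was 310 ± 47.2 CPM (SD, n = 7) in high-numbered and 454 ± 28 (n = 8) in low-numbered controls, a log2 difference of −0.55 (adjusted p = 3.49e-04). GPX1 (315 against 476 CPM) and GPX4 (194 against 293) were lower too and TXNRD1 (264 against 200) was higher. On plate 3284-AT (5.12%) GPX4 was 314 against 450 CPM and SRXN1 16.6 against 8.38. The dosed groups held low and high numbers alike, cadmium excepted. Against the low-numbered controls alone, cadmium still gave 1.53 for TXN, 1.09 for TXNRD1, 0.92 for PRDX1 and 5.79 for OSGIN1 on the log2 scale, all past the test. Between water and DMSO controls of plate 3240-AT GPX4 alone passed, with 311 ± 14.7 CPM (n = 4) in water and 370 ± 23.7 (n = 12) in DMSO. The water level was lower, by −0.25 ± 0.08 on the log2 scale (edgeR adjusted p = 0.0344), where 2.55% of all genes were called lower, and the call was lost without any 1 of the water controls.

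Other genes of the same pathways were taken from lists chosen by name. Their counts stand beside 41.5% of all genes called in arsenic and 32% in thiram (68.1% and 57.1% of abundant genes). By direction, 23.1% of all genes were higher and 18.5% lower in arsenic, and 15.7% higher and 16.2% lower in thiram. The lists are short, and their counts were not tested against these shares. Of 7 other thioredoxin system genes, 1 rose and 3 fell in arsenic and 1 rose and 4 fell in thiram (medians −0.16 and −0.60). Mitochondrial TXN2 fell in both, by 0.94 and 0.56 on the log2 scale, and TXNL1 rose by 0.92 and 0.97. TXNRD3, the third thioredoxin reductase, changed most in arsenic (−2.21) and in cadmium (−4.39) and also fell in thiram (−1.15). The cadmium value rests on libraries at 0 and 1.40 CPM, near the floor, against a mean of 14.2 CPM in the controls. TXNIP, the thioredoxin-binding inhibitor, fell in thiram (−1.83) and in lead (−1.28, adjusted p = 0.0322). Of the 4 other peroxiredoxins all fell in thiram, PRDX4 of the endoplasmic reticulum most (−0.62), and in arsenic PRDX3 (−0.67) and PRDX4 (−1.10) fell while PRDX5 (0.47) rose. In copper and lead no other peroxiredoxin passed, although PRDX1 did. Of the other glutathione peroxidases GPX8 rose in arsenic (1.25) and fell in thiram (−0.37). Among glutaredoxins and glutathione reductase, GLRX rose by 1.12 in arsenic and 1.10 in copper and GSR by 0.51 in arsenic and 0.60 in thiram.

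Of the 7 methionine sulfoxide reductases and sestrins, 4 rose and 1 fell in arsenic, led by SESN2, a stress-induced sestrin (4.27, and 3.21 in thiram). SOD1 rose in arsenic (0.88), cadmium (0.87) and thiram (0.44), and catalase (CAT) fell in the same 3 (−0.54, −1.68 and −0.99). Of the 7 regulators of NRF2 all rose in arsenic and 5 in thiram, NFE2L2, which encodes NRF2, by 0.47 and 0.73, and in cadmium 3 rose and 3 fell. Of 6 reference targets of NRF2 all rose in copper and lead, 4 in arsenic and thiram, 3 in cadmium and 2 in mercury. HMOX1, the heme oxygenase, changed by 8.77 in arsenic, 9.95 in cadmium, 5.53 in thiram, 2.52 in copper and 2.13 in lead, and NQO1 by 1.23, 1.35, 0.34, 1.23 and 1.17. The NRF2 target list holds genes already known from these data to respond, so its counts are no independent support.

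Over the 21 groups of plate 3153-AT, mean log2(CPM + 1) was correlated between each member and 7405 other genes, as a description: the groups share controls, scaling and library depth. Without the 25 µM groups of arsenic and cadmium, 19 groups remain, and that r is given second. TXN was most like TALDO1 (0.97, then 0.92), a pentose phosphate enzyme, TXNRD1 like PTGR1 (0.95, 0.94), UGDH and SLC7A11, the cystine transporter, and PRDX1 like TIMP1 (0.98, 0.93). OSGIN1 was most like GSTO1 (0.97, 0.87), SRXN1 like DLGAP4 (0.93, 0.82), and GPX1 like SELENOT (0.95, 0.87), another selenoprotein gene, and its pseudogene GPX1P1 (0.92, 0.91). GPX4 was most like VSIR (0.91, 0.87), TXNRD2 like NPRL3 (0.85, 0.78) and PRDX6 like EEF1A1 (0.80, 0.90). Among the members, TXN followed PRDX1 (0.93, 0.93), OSGIN1 (0.96, 0.88) and TXNRD1 (0.83, 0.92). TXN and SRXN1 had 0.21 over all groups and 0.78 without the high doses of arsenic and cadmium.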

How the data were processed

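Per the submitters' processing notes, reads were checked with FastQC and MultiQC, aligned with STAR to GRCh38 and counted with featureCounts. The sources used here do not name their versions, the annotation or the strand setting. The deposited files, 1 for every library, list raw counts of reads by gene symbol, with no normalization. Counting without strand would mix genes that overlap on opposite strands. Counts were tested with edgeR 4.0.16 (quasi-likelihood F-test, TMM scaling, filterByExpr with a minimum count of 10 and a minimum total of 15) in R 4.3.3. Each plate was fitted whole, with 1 mean per chemical and dose. P-values were Benjamini-Hochberg adjusted over all genes of a comparison (24295 on plate 3153-AT, 21307 on plate 3284-AT), and a call is an adjusted p under 0.05. The spread was modelled with a trended dispersion, and a single dispersion was kept as an alternative. Where a percentage of all genes stands beside a count, it is the share called in that comparison by the same rule.

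The library labelled cadmium at 25 µM with the barcode of plate 3284-AT was left out. Members and lists were chosen with earlier results of these data known. All 10 members are described, with library values where a member passed at 25 µM. Of each other list, the 2 most abundant genes and those with the largest change in arsenic, cadmium or thiram were eligible to be named, and HMOX1 and NQO1 were added. The selenoprotein list and the comparisons between metals were added after the data had been seen. Alternatives were DESeq2 1.42.0, its RLE scaling within edgeR, total counts, no low-count filter, mitochondrial genes left out, a single dispersion, libraries of low or high label numbers alone or as a term, the 2 groups alone, each replicate left out, and a replicate block. Replicate numbers do not pair the libraries. Intervals are log2 fold change ± 1.96 SE. Gene positions and exon lengths are from GENCODE v29, promoter windows from RefSeq, GRCh38.p14. Tables were made with pandas 2.3.3 in Python 3.11.15.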

Additional observations from a re-analysis of the deposited data

Results flagged for a closer look

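The 45 groups of 4 libraries read here were members where they passed, and every member but GPX2 in PCB153 at 0.25 µM. In 5 of the 45, the gap of 1 library to the nearest other exceeded 0.829 of the range, the 95% limit of Dixon's test. Chance puts about 5% of groups past it. TXNRD1 had 636.9 CPM in the fourth arsenic library at 2.5 µM, where the others had 313.7 to 339.6. At 25 µM of arsenic, SRXN1 had 45.65 CPM in the first library (others 35.12 to 36.86) and OSGIN1 122.4 CPM in the third (others 81.85 to 85.68). The third PCB153 library at 0.25 µM had 1120 CPM of TXNRD1 (others 275.8 to 327.8) and 67.12 CPM of OSGIN1 (others 5.237 to 8.305). The arsenic calls at 25 µM held without the library that stood apart, and those of TXNRD1 in arsenic at 2.5 µM and in PCB153 at 0.25 µM did not.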

How the results depend on the processing

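Of 616 recomputed values of the 42 member differences that passed, 544 kept their direction and their side of the threshold, 71 kept the direction but no longer passed, and 1 reversed: TXNRD1 in cadmium at 25 µM, −0.10 under total counts. Of the 30 calls at 25 µM, 20 held under every alternative. In copper the 5 calls became 3 under RLE scaling, with high-numbered libraries alone, with the 2 groups alone and with the set-aside cadmium library in the fit. High-numbered libraries alone gave mercury 2 calls and a term for the label number gave it 1, in place of 0. DDE at 25 µM went from 0 to 1 call without its end numbers (1, 8, 9 and 16). The 10 calls at 2.5 µM became 17 with the term. The 1 call at 0.25 µM became 6 with low-numbered or high-numbered libraries alone, 5 with the term, 3 without the low-count filter, 2 under DESeq2, total counts or without the DDE end numbers, and 0 without the third PCB153 library. At 0.025 µM, DESeq2 and high-numbered libraries alone gave 1 call in place of 0. The solvent comparison, with 1 call, gave 2 under DESeq2 and 0 with low-numbered libraries alone or without the low-count filter. The pairs of related chemicals, with 0 calls, gave 4 under DESeq2, 7 and 8 with low-numbered and high-numbered libraries alone, 3 without the low-count filter and 2 with the term. Leaving out each replicate in turn gave 25 to 30 calls at 25 µM, 7 to 11 at 2.5 µM, 0 to 3 at 0.25 µM, 3 to 4 in copper and in lead, 0 to 2 for the solvents and 0 to 4 for the pairs. In cadmium it leaves 1 library, assumed to vary like the other groups. With a replicate block, 24 trends passed in place of 22. Label numbers did not pair the libraries: deviations from the group means correlated by a median of 0.15 between libraries of the same number and 0.15 between other libraries of the same set, and 168 of 316 libraries correlated best with their own number. The cause of these changes was not tested. Depth limits SRXN1, OSGIN1 and GPX2, which have few counts per library.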

Other observations

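Of the members, 5 (GPX1, GPX2, GPX4, TXNRD1 and TXNRD2) encode selenoproteins, and the other genes of that class were read after the members had been seen. Of 25 selenoprotein genes 21 were tested on plate 3153-AT. In arsenic at 25 µM, 5 rose and 9 fell, where 41.5% of all genes and 68.1% of abundant ones were called. The median log2 fold change was −0.44, against 0.02 over all genes. In thiram 4 rose and 9 fell, where 32% of all genes and 57.1% of abundant ones were called (median −0.24, against −0.11). The list holds both abundant genes and genes of few counts, so neither share is a matched background. TXNRD3 (−2.21), SELENOW (−1.58), SELENON (−1.62), SELENOT (−1.15) and SELENOO (−1.04) fell in arsenic beside GPX1, whereas SELENOM (2.09), SELENOS (1.34) and SELENOK (1.25) rose beside TXNRD1. SELENOK and SELENOS, proteins of the endoplasmic reticulum membrane, also rose in thiram (1.79 and 1.10) and in cadmium (3.92 and 1.44). In copper 1 of the 21 rose and 1 fell, and in lead 1 rose and none fell by edgeR. The 1 that rose in both was TXNRD1, and SELENOP, a secreted selenium carrier, fell in copper (−1.67).

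Of 6 genes for selenoprotein synthesis, 3 rose and 2 fell in arsenic and 2 rose and 4 fell in thiram. SEPHS2, which makes the selenium donor and is itself a selenoprotein, rose in arsenic (1.71) and fell in thiram (−0.63). SECISBP2, which binds the selenocysteine insertion element, rose in arsenic (0.91), cadmium (2.18) and thiram (0.79). Why some selenoprotein messages rose and others fell was not tested.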
